A study of Mus musculus with 3 samples.

Results

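The genes described here are 8 members of the opioid, galanin and related neuropeptide systems: Pdyn, Penk, Gal, Galr1, Vgf, Cartpt, Adcyap1 and Nts. They were taken by name, with no threshold on their levels. In the table of replicate 1, called library 1 here, 6 of the 8 have a row among 16157 genes, and Adcyap1 and Nts have none. All 8 have a row among the 32285 genes of the combined table of replicates 2 and 3. The samples are 3 preparations of mouse pancreatic islet cells from Ngn3-CreERT:R26-CAG-TdTomato animals, taken 10 days after tamoxifen, and all fall in 1 group. In these mice a tamoxifen-dependent Cre under Ngn3 control switches on the red protein TdTomato, so every cell comes from a treated lineage-tracing animal, and no untreated or Cre-negative sample is included. Each of replicates 2 and 3 pooled 2 mice. Their cells are not assigned to a replicate in the combined table, which therefore counts as 1 library, and all comparisons below set cell classes against each other over 2 libraries.

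Most members encode precursors of peptides that are stored in dense-core granules and released with hormones or neurotransmitters. Prodynorphin (Pdyn) and proenkephalin (Penk) are opened by prohormone convertases into opioid peptides, which act on receptors coupled to inhibitory G proteins. Galanin (Gal) is a peptide of sympathetic nerves that reach the islet and lowers insulin release, and Galr1 is one of its inhibitory receptors. Vgf encodes a granin-like granule protein that is cleaved into several peptides. Cartpt encodes the precursor of CART peptides, Adcyap1 that of PACAP, a peptide that raises cyclic AMP in islet cells, and Nts that of neurotensin.

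On the GRCm38 assembly with the GENCODE M21 annotation, all 8 are protein-coding genes, and the place of Galr1 is given with its levels. Pdyn lies at chr2:129686565-129699844 on the minus strand, Penk at chr4:4133531-4138819 on the minus strand, Vgf at chr5:137026392-137033351 on the plus strand and Nts at chr10:102481756-102490486 on the minus strand. Cartpt lies at chr13:99898489-99901091 on the minus strand, Adcyap1 at chr17:93199017-93206537 on the plus strand, and Gal at chr19:3409915-3414544 on the minus strand. Penk overlaps A830012C17Rik on the opposite strand, so its counts depend on strand-aware counting, which is not given in the sources used here.

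RefSeq upstream sequence (GRCm38.p6) was available for 5 of the 8 by symbol, namely Pdyn, Nts, Cartpt, Adcyap1 and Gal. Several neuropeptide precursor genes are textbook targets of cyclic AMP signalling, so the 250 bases before each start were searched on both strands for the cyclic AMP response element TGACGTCA and for its core TGACG, which the full element contains. The Pdyn stretch is printed because Pdyn is the member precursor with the highest levels in the hormone classes below, and the 3 short stretches because they hold a match, in capitals. All are written 5′ to 3′ on the strand of the gene, Pdyn at chr2:129699939-129700188 (minus), Cartpt at chr13:99900778-99900805 (minus), Adcyap1 at chr17:93198916-93198943 (plus) and Nts at chr10:102490567-102490594 (minus).
Pdyn: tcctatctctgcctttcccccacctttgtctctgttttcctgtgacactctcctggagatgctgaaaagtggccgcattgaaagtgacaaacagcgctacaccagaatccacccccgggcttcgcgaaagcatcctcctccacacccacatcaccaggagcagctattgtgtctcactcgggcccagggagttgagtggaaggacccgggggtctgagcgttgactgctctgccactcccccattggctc
Cartpt: cggcgggcatTGACGTCAaacggcagcg
Adcyap1: actaggatgcTGACGtcttttactgata
Nts: tagggaagatCGTCActttccatcaagg
The Cartpt stretch holds the full element, 112 bases before its RefSeq start. That start and the stretch lie inside the GENCODE span of the gene. Adcyap1 holds the core 91 bases before 1 RefSeq start and 242 bases before another. Nts holds it on the other strand 166 bases before its start. The Pdyn and Gal stretches, and that before a further RefSeq start of Pdyn, hold neither set of letters. This says nothing of these genes beyond these windows. Among 32851 promoters of the same table the full element occurred in 1.55% of the 250-base stretches and the core on either strand in 17.8%.

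Cells were classed by hormone alone, as UMIs (unique transcript molecules) per 10000 of the cell: insulin (Ins1 plus Ins2) from 3000, and Gcg, Sst or Ppy from 200. The filters kept 853 cells in library 1 and 11072 in the combined table. Delta cells (Sst only) numbered 25 and 230, alpha cells (Gcg only) 104 and 926, PP cells (Ppy only) 18 and 236, and beta cells (insulin only) 468 and 7018, in library 1 and the combined table in that order. Cells with Sst and insulin, kept apart, numbered 8 and 108, and cells with Sst and Ppy 42 and 362. Of the fixed marker lists, 6 of 7 beta, 7 of 7 alpha and 6 of 6 delta markers were highest in their own class in each table, but only Pyy of 4 PP markers was, so the PP name rests on Ppy and Pyy. Median UMIs per cell differed widely between classes, at 11000 and 5505 in delta, 14305 and 7682.5 in alpha, 21152.5 and 12502.5 in PP and 39329.5 and 19956.5 in beta cells. Endothelial cells, which should lack islet peptides, served as the measure of free RNA, at 8576.5 and 2993 UMIs per cell. Levels below are summed UMI counts per 1000000 UMIs of the class (CPM) with exact Poisson 95% intervals, which cover counting error only. The reads are 3-prime tags, so no length scaling applies. Hormone RNA took most UMIs of beta cells, and CPM over non-hormone UMIs alone is given where this matters.

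Pdyn transcripts were found in somatostatin and insulin cells and were near the free-RNA level in glucagon cells. In delta cells of library 1 Pdyn reached 87.4 CPM (57.1 to 128), and 68.7 CPM (55.6 to 83.9) in those of the combined table. Beta cells of library 1 held 18.8 CPM (17.0 to 20.8) against 25.02 CPM (24.2 to 25.8) for those of the combined table. Alpha cells were at 1.38 and 1.34 CPM, PP cells at 24.1 and 1.18 CPM, in the same order of tables. The delta level was thus above the beta level in each table, with Poisson intervals that did not overlap. Alpha cells were far below both classes. These intervals take UMIs as independent, which fails in library 1, where 1 delta cell held 17 of the 26 delta UMIs. The PP value of library 1 came from 10 UMIs in 1 cell, which also held 2595 insulin UMIs per 10000 beside 617 of Ppy.

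In shares of cells, Pdyn was seen in 5 of 25 delta cells (20%, exact 95% interval 6.83 to 40.7) in library 1 and in 56 of 230 (24.3%, 18.9 to 30.4) in the combined table. The beta shares were 24.4% (114 of 468) and 18.2% (1276 of 7018). Shares of 1.08% in alpha and 1.69% in PP cells of the combined table compare with 9 of 748 endothelial cells (1.20%), and the alpha share did not exceed that background. One delta cell carried 17 of the 26 delta UMIs in library 1, and the highest delta cell of the combined table had 6. After each cell was thinned to 2000 UMIs, Pdyn remained in 4% and 9.81% of delta cells, against 2.79% and 3.37% of beta cells and 0% and 0.112% of alpha cells.

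Scaling decides how far apart delta and beta cells stand. In CPM of non-hormone UMIs, delta cells held 108 and 90.7 of Pdyn and beta cells 53.6 and 74.7, in library 1 and the combined table in that order, with combined-table intervals of 73.4 to 111 and 72.4 to 77.1 that overlap. Over the 3 barcode blocks of the combined table the CPM was 79.6, 70.6 and 46.7 in delta cells, against 22.8, 29.96 and 24.6 in beta cells. Beta cells made up 54.9% and 63.4% of all kept cells and held 73.3% of all Pdyn UMIs in library 1 and 87.5% in the combined table. They also had the most UMIs per cell of the 4 classes, so these shares are no measure of enrichment.

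Free insulin RNA gives a yardstick if RNA that leaks from beta cells keeps the beta ratio, which was not tested. Per 10000 insulin UMIs of the combined table, Pdyn stood at 7.32 (5.93 to 8.94) in delta cells and 3.91 in cells with Sst and Ppy, against 0.377 (0.365 to 0.389) in beta cells. In alpha cells it was 0.268 (0.129 to 0.494) and in endothelial cells 0.373 (0.170 to 0.708), both spanning the beta ratio. The 2 alpha UMIs of library 1 gave 1.34 (0.162 to 4.84), against 0.290 in its beta cells.

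**Figure D1:**
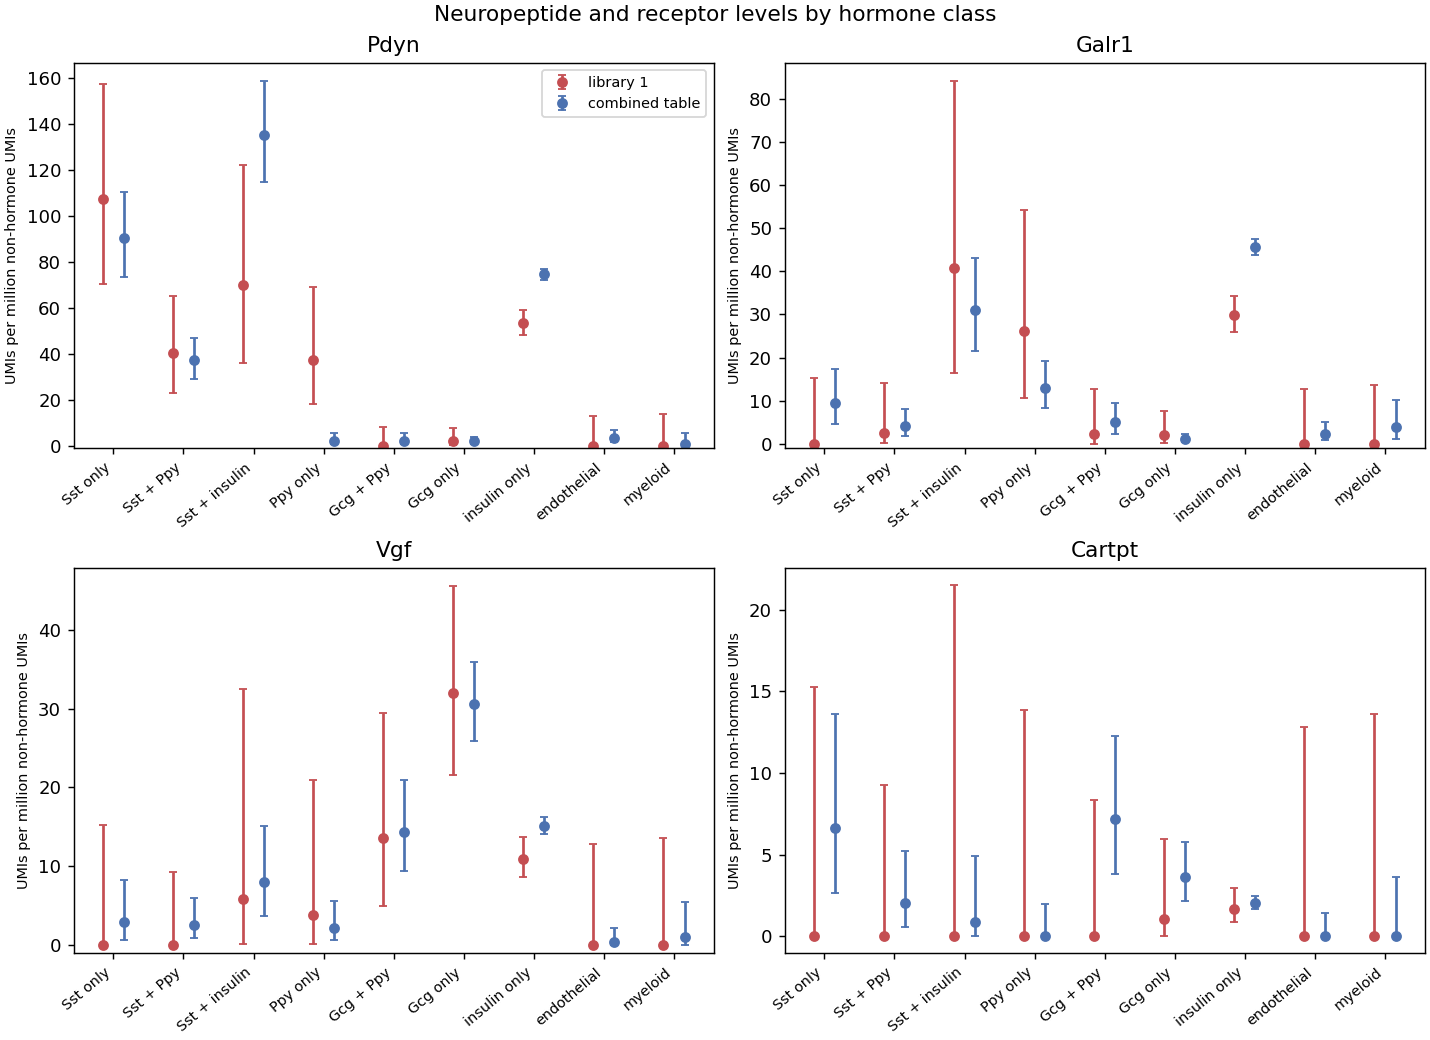
Summed CPM of non-hormone UMIs of Pdyn, Galr1, Vgf and Cartpt (vertical axes, separate scales) in hormone classes and 2 background classes, with exact Poisson 95% intervals (bars), for library 1 and the combined table. Pdyn was high in Sst-only cells (108 and 90.7), Galr1 in insulin-only cells (29.9 and 45.6) and Vgf in Gcg-only cells (32.0 and 30.6).

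The classes were compared with limma on the log2 mean level per 10000 UMIs plus 0.05, with library as a block and each column centred on its median gene, over 8524 genes. Of the 8 members, 3 (Pdyn, Galr1 and Vgf) passed the filter on low values, at least 0.1 per 10000 in at least 2 of 9 columns. The remaining 5 were too rare to test. Vgf reached 0.1 per 10000 only in the 2 alpha columns (0.212 and 0.199), so it was tested only through the class where it is highest. Galr1 reached it in the beta columns (0.113 and 0.158), the library 1 PP column (0.203) and the Sst-plus-insulin column (0.129). No delta or alpha column of Galr1 reached it. Pdyn reached it in the delta, beta, Sst-plus-insulin and library 1 PP columns, but in no alpha column. Calls of these members between classes are therefore not independent of the filter. Before centring, the median gene stood at −1.50 and −1.55 (log2) in delta, −1.79 and −1.84 in alpha, −2.02 and −2.25 in PP and −2.48 and −2.49 in beta cells, so every change below is relative to these medians. With 2 libraries and a library block, limma p-values rest on how far class differences disagree between the libraries, moderated over all genes.

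In delta cells against the mean of beta, alpha and PP cells, 3 of the 3 tested members were called at an adjusted p under 0.05, where 13.1% of all genes tested were. Of those calls over all genes, 47.4% were higher in delta cells, or 96.4% with no centring. Pdyn was higher by 2.12 (SE 0.36, adjusted p = 0.00166), at 2.01 in library 1 and 2.23 in the combined table. Vgf was lower at −1.55 (SE 0.26, adjusted p = 0.00176) and Galr1 at −1.35 (SE 0.34, adjusted p = 0.0188). The Galr1 value was −2.07 in library 1, where delta cells held none, and −0.63 in the combined table, so its size depends on the added 0.05. The Galr1 call was lost with edgeR (adjusted p = 0.699) and DESeq2 (adjusted p = 0.754), and the Vgf call with DESeq2 (adjusted p = 0.105).

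In alpha cells against the mean of beta, delta and PP cells, 3 of 3 were called, beside 11.4% of all genes. The higher share of those calls was 46.7%, or 77.8% with no centring. Pdyn was lower at −2.44 (SE 0.36, adjusted p = 5.62e-04; −2.95 and −1.93 by table), and Galr1 was lower at −1.43 (SE 0.34, adjusted p = 0.0142). Vgf was higher by 1.58 (SE 0.26, adjusted p = 0.00147), at 1.75 and 1.42 in the 2 tables. Because Vgf passed the filter only through the alpha columns, this call is not independent of the filter. With no filter the alpha value of Vgf was 1.64 (limma adjusted p = 0.00721). Pdyn and Galr1 passed the filter through no alpha column, so their low calls are not independent of it either. With no filter they were −2.38 and −1.37 (limma adjusted p = 0.0128 and 0.0858).

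In beta cells against the mean of alpha, delta and PP cells, 1 of 3 was called, beside 16.8% of all genes (47.6% of calls higher, or 4.64% with no centring). Galr1 was higher by 1.61 (SE 0.34, adjusted p = 0.00445), at 1.505 and 1.71. Galr1 passed the filter partly through the beta columns, and with no filter its beta value was 1.42 (limma adjusted p = 0.0186). Pdyn had 0.92 (SE 0.36, adjusted p = 0.108) and Vgf 0.50 (SE 0.26, adjusted p = 0.255), whereas edgeR called all 3. In PP cells against the mean of beta, alpha and delta cells, limma called 0 of 3, beside 6.58% of all genes (57.9% of calls higher, or 14.0% with no centring). Galr1 alone passed an unadjusted p of 0.05 there, at 1.17 (SE 0.34, adjusted p = 0.0573), and edgeR and DESeq2 also called 0. The Pdyn value of PP cells was 0.42 in library 1 and −1.61 in the combined table. Without the 1 PP cell of library 1 that held 10 Pdyn UMIs, it was −1.81 (limma adjusted p = 8.39e-04), and the beta value of Pdyn was then 1.32 (limma adjusted p = 0.00164).

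**Figure D2:**
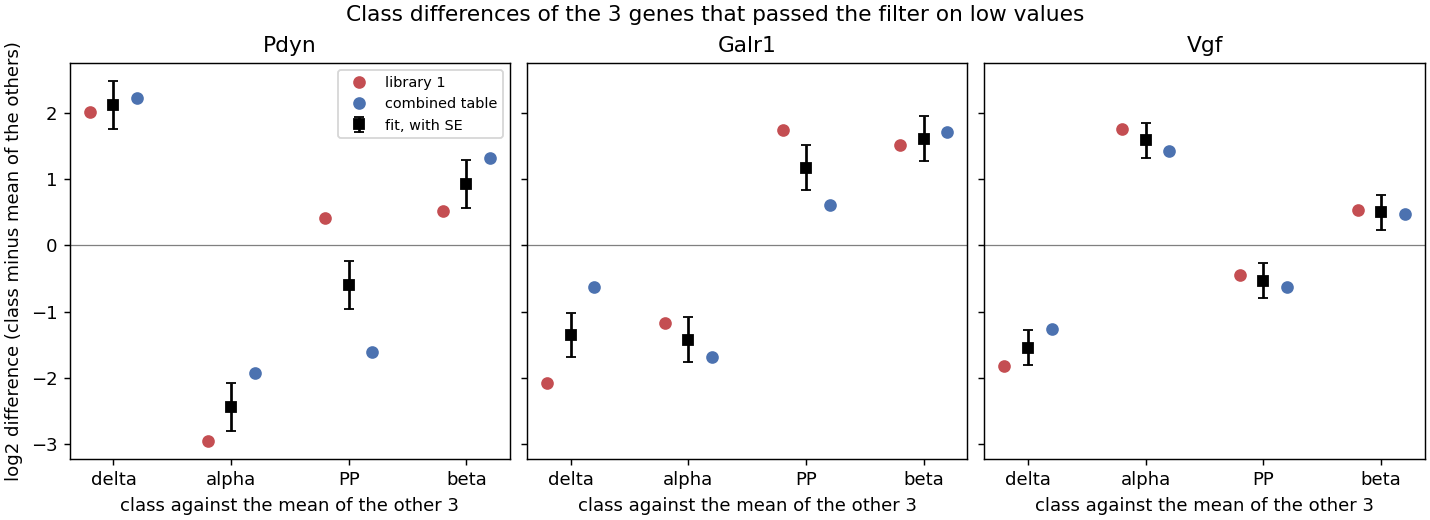
Log2 difference of each class from the mean of the other 3 (vertical axis) for Pdyn, Galr1 and Vgf, with the value of each library (circles) and the fit with its standard error (squares). Pdyn in delta and alpha cells, Galr1 in beta cells and Vgf in alpha cells lie on the same side of 0 in each library, whereas Pdyn in PP cells was 0.42 in library 1 and −1.61 in the combined table.

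Pairs of classes from the same fit set the order of Pdyn levels. Delta cells exceeded alpha cells by 3.42 (log2 difference, adjusted p = 1.73e-04) and PP cells by 2.04 (adjusted p = 0.0119) in limma, where 12.0% and 9.62% of all genes were called. The call against PP cells held in 13 of 18 alternatives (adjusted p up to 0.268, with DESeq2). Against beta cells the delta difference was 0.90 (SE 0.44, adjusted p = 0.199), where 16.2% of all genes were called. That difference was 1.12 in library 1 and 0.68 for the combined table, had an unadjusted p of 0.0620, and passed the adjusted threshold in 2 of 18 alternatives, with pseudocount 0.5 (0.56) and with no centring (1.85). No fit left out the delta cell that held 17 of the 26 delta UMIs of library 1, so its part in the 1.12 was not tested. Alpha cells were below beta cells at −2.52 (limma adjusted p = 0.00131). PP cells differed by −1.14 from beta cells (adjusted p = 0.112, where 14.1% of all genes were called) and alpha cells by −1.38 from PP cells (adjusted p = 0.109), neither past the threshold.

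Cells with Sst and insulin also carried Pdyn. They had 33.2 CPM in library 1 (12 UMIs in 3 of 8 cells) and 58.5 CPM in the combined table (41 of 108 cells, 38.0%). Their blocks gave 60.0, 87.3 and 36.8 CPM. In CPM of non-hormone UMIs they held 70.0 and 135 (115 to 159), against 108 and 90.7 (73.4 to 111) in delta cells, and 74.7 (72.4 to 77.1) in beta cells of the combined table. Their ratio to insulin UMIs in the combined table was 1.11 (0.940 to 1.30), above that of beta cells. Only the combined table had the 10 cells needed for a column, so the fit rests on it. That 1 column has no spread of its own, so its SE and p-values borrow the spread of the other classes. Against delta cells, limma called 0 of 3 members beside 0.645% of all genes (83.6% of calls higher, or 2.91% with no centring). Pdyn had −0.07 (SE 0.56, adjusted p = 0.979), Vgf 0.80 (adjusted p = 0.483) and Galr1 1.73 (adjusted p = 0.211). Galr1 alone passed an unadjusted p of 0.05, and edgeR and DESeq2 called 0. Against beta cells, limma called 0 of 3 beside 0.763% of all genes (95.4% of calls higher, or 66.1% with edgeR), with 0 at an unadjusted p of 0.05 and 0 by edgeR or DESeq2. Pdyn had 0.83 there (SE 0.56, adjusted p = 0.934). These cells had a median of 22938.5 UMIs in the combined table, against 5505 in delta and 19956.5 in beta cells. The part of doublets in their Pdyn level was not tested.

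Among cells with Sst in the combined table, Pdyn levels differed with the amount of each hormone, but not in a steady order in every block. In the combined table its level in CPM of non-hormone UMIs was 15.4, 39.3, 45.3, 92.2 and 110 in cells with 200 to 500, 500 to 1000, 1000 to 1500, 1500 to 2000 and 2000 or more Sst UMIs per 10000. In library 1 the bins held 4 to 25 cells and no steady order, with 545 in the top bin of 5 cells and 0 in the lowest of 4. By Ppy the combined-table level was 79.3 and 103 below 50 and from 50 to 200 Ppy UMIs per 10000, and 38.6, 49.3 and 25.1 in the 3 bins above. The same Ppy bins held 44.4, 71.7, 13.2, 100 and 5.21 in barcode block 3 and 211, 29.2, 56.1, 20.4 and 41.4 in library 1. Cells of the lowest Sst and highest Ppy bins were deeper, with median UMIs of 11361.5 and 12731, against 5267 to 6213 in the other combined-table bins. The part of depth or doublets in these bins was not tested. Sst-only cells held 87.4 and 68.7 CPM, against 31.2 and 26.1 CPM in cells with Sst and Ppy. The limma difference of Sst-only from Sst and Ppy cells was 1.21 (SE 0.42), at 1.29 in library 1 and 1.14 in the combined table, with an unadjusted p of 0.0106 and an adjusted p of 0.469 over 8932 genes, of which 0.0224% were called. The difference therefore failed the correction for all genes.

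**Figure D3:**
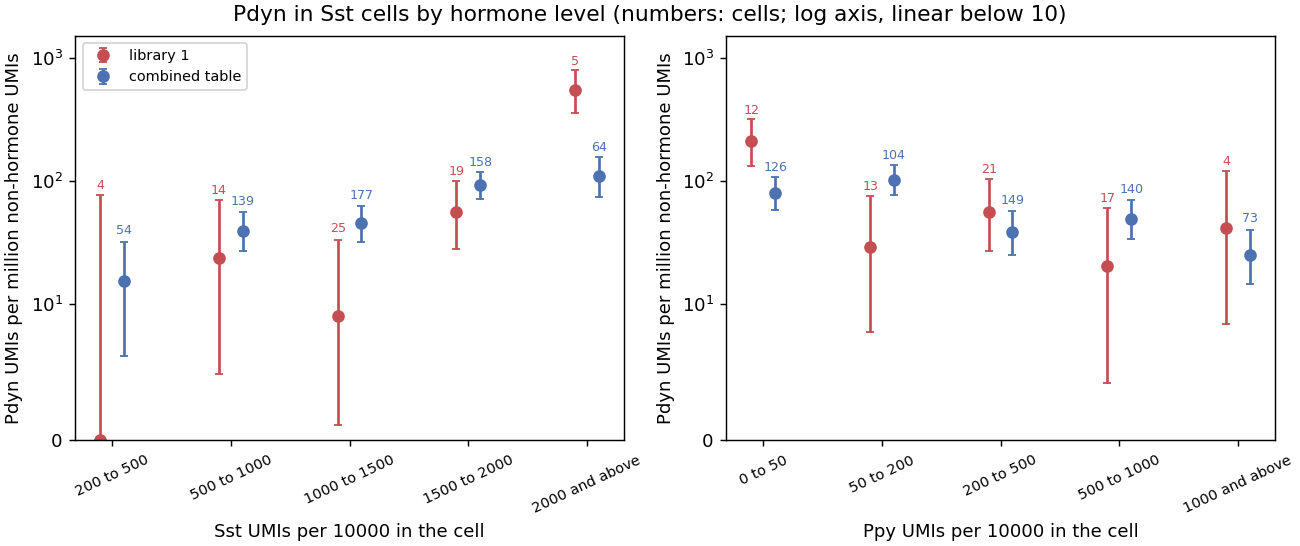
Pdyn in CPM of non-hormone UMIs (log axis, linear below 10) in cells with Sst, by Sst level (left) and Ppy level (right) in UMIs per 10000, with exact Poisson 95% intervals and the number of cells above each point. In the combined table the level was 15.4 in the lowest Sst bin and 110 in the highest, and 25.1 in the highest Ppy bin.

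Within beta cells Pdyn was uneven. Most cells had none, 46.5% and 47.6% of positive cells had a single UMI, and the highest held 42 UMIs in library 1 and 43 in the combined table. The variance over the mean was 10.1 and 7.77, against 1.13 and 1.22 for Galr1 and 1.70 and 1.49 for Vgf. Cells with 10 or more Pdyn UMIs numbered 6 and 65. The level also moved with depth: from the shallowest to the deepest of 5 equal groups of combined-table beta cells it was 37.0, 41.0, 43.6, 69.3 and 118 in CPM of non-hormone UMIs. Library 1 gave 44.5, 38.4, 30.6, 53.7 and 76.2. Galr1 showed no such order, at 39.8, 46.9, 45.5, 50.2 and 43.5 in the combined table, and Vgf gave 14.9, 8.55, 11.1, 13.9 and 20.7. The part of doublets in the deepest group was not tested.

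**Figure D4:**
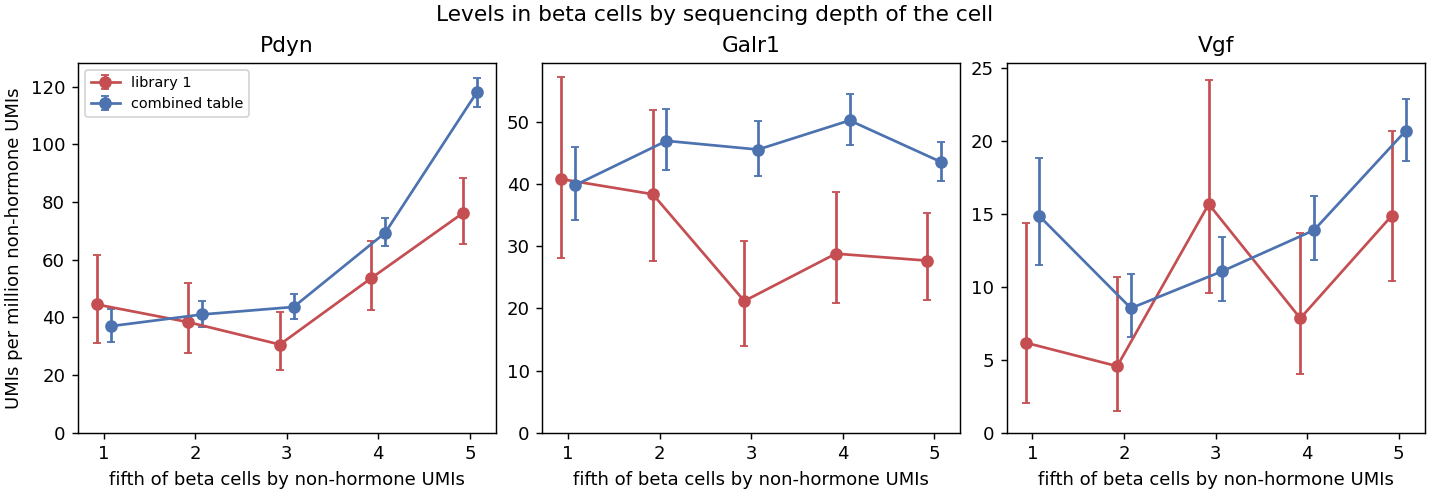
Levels in CPM of non-hormone UMIs (vertical axes, from 0) of Pdyn, Galr1 and Vgf in beta cells split into 5 equal groups by non-hormone UMIs, shallowest at the left, with exact Poisson 95% intervals. Pdyn was 118 in the deepest and 37.0 in the shallowest group of the combined table, while Galr1 stayed between 39.8 and 50.2.

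Galr1, at chr18:82392380-82406777 on the minus strand, was mainly a beta-cell transcript. Beta cells held 10.5 CPM (9.13 to 12.0) in library 1, with a UMI in 161 of 468 cells (34.4%), and 15.3 CPM (14.7 to 15.9) in the combined table, in 1826 of 7018 cells (26.02%). They carried 90.6% and 92.8% of all Galr1 UMIs. Alpha cells had 1.38 and 0.669 CPM, and their combined-table share of 0.540% did not exceed the 0.802% of endothelial cells (6 of 748). Delta cells had 0 of 25 in library 1, with an exact Poisson upper limit of 12.4 CPM (10.1 CPM by the limit of 3 counts), and 7.15 CPM (9 of 230) in the combined table. In library 1 PP cells came nearest to beta cells, at 16.8 CPM (6.77 to 34.7, 5 of 18 cells). In the combined table PP cells had 7.09 CPM (4.54 to 10.6, 19 of 236 cells), level with delta cells.

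On non-hormone UMIs, Galr1 was at 29.9 and 45.6 CPM in beta cells and at 26.3 and 12.9 CPM in PP cells. Delta cells of the combined table had 9.44 and its alpha cells 1.01 CPM on that scale. Cells with Sst and insulin had 40.8 CPM from 7 UMIs in library 1 and 31.0 CPM (21.6 to 43.1) in the combined table. Per 10000 insulin UMIs, PP cells of the combined table held 1.56 (0.998 to 2.32), delta cells 0.763 (0.366 to 1.40), alpha cells 0.134 (0.0436 to 0.313) and endothelial cells 0.249, beside 0.230 in beta cells. The PP and delta ratios lay above that of beta cells. In limma, delta cells were below beta cells at −2.22 (adjusted p = 0.00236) and alpha cells below them at −2.27 (adjusted p = 0.00175), where 14.8% of all genes were called. Delta cells were also below PP cells at −1.89 (adjusted p = 0.0126) and alpha cells below them at −1.95 (adjusted p = 0.0163). PP and beta cells differed by −0.33 (adjusted p = 0.673), which was 0.18 for library 1 but −0.83 for the combined table, and delta and alpha cells by 0.05 (adjusted p = 0.951). In this fit the order was thus beta and PP above delta and alpha, with no call between beta and PP or between delta and alpha. It rests on the setting: PP above delta and PP above alpha were called in 15 and 13 of 18 alternatives (adjusted p up to 0.255 and 0.125). With edgeR, PP cells were below beta cells at −1.25 (adjusted p = 0.00395) and delta cells above alpha cells by 2.53 (adjusted p = 0.0376). In summed CPM of the combined table, PP and delta cells were level (7.09 and 7.15). The limma fit sets them against column medians of −2.25 and −1.55 (log2).

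Vgf was highest in glucagon cells. Alpha cells held 20.8 CPM (14.0 to 29.6, 22 of 104 cells) in library 1 and 20.2 CPM (17.1 to 23.7, 123 of 926 cells) in the combined table, and their 3 blocks gave 19.0, 21.8 and 21.3. Cells with Gcg and Ppy had 8.36 and 9.08 CPM. Beta cells had 3.83 CPM (55 of 468 cells) and 5.05 CPM (600 of 7018), and PP cells 2.41 and 1.18 CPM from 1 and 4 UMIs. Delta cells had 0 UMIs in library 1 and 3 UMIs (2.15 CPM) in the combined table, beside 1 of 748 endothelial cells (0.134%, 0.358 CPM). In CPM of non-hormone UMIs the alpha level was 32.0 and 30.6 and the beta level 10.9 and 15.1.

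Alpha cells exceeded delta cells in Vgf, given as −2.35 for delta minus alpha (limma adjusted p = 3.07e-04), and PP cells by 1.59 (adjusted p = 0.0130), where 4.07% of all genes were called. Against beta cells they differed by 0.82 (SE 0.32, adjusted p = 0.124). Delta cells were below beta cells at −1.53 (adjusted p = 0.00561), and delta and PP cells differed by −0.76 (adjusted p = 0.155). In this fit Vgf thus ran from alpha to beta to PP and delta, but the order of PP and delta rests on few UMIs. PP cells held 1 and 4 UMIs and delta cells 0 and 3, in library 1 and the combined table. Their mean levels were below the value added before the log. In summed CPM of the combined table delta cells were above PP cells (2.15 and 1.18, overlapping intervals), whereas the fit gave −0.48 for delta minus PP. The fit sets them against column medians of −1.55 and −2.25 (log2). Each neighbouring pair differed by more than 2 SE, with unadjusted p of 0.0258 (alpha and beta), 0.0331 (PP and beta, −0.77) and 0.0362 (delta and PP), and missed the threshold after adjustment over all genes. Alternatives called them in 7, 4 and 1 of 18 cases, with adjusted p down to 5.87e-05, 0.00194 and 0.0255. Per 10000 insulin UMIs of the combined table Vgf was 4.05 (3.43 to 4.75) in alpha cells and 0.0761 in beta cells.

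Beta cells of the combined table differed in Vgf by sex-linked transcripts. All 4 Y-linked genes counted (Ddx3y, Eif2s3y, Uty and Kdm5d) were at 0 in the beta cells of library 1, where 466 of 468 cells held Xist. In the combined table, 1279 beta cells held a Y-linked UMI and no Xist, 4799 held Xist and no Y-linked UMI, 277 held both and 663 neither. Vgf stood at 31.8 in CPM of non-hormone UMIs (28.4 to 35.4) in the Y-linked cells, against 9.16 (8.18 to 10.2) in the Xist cells. By block the pairs were 33.0 against 7.52, 31.0 against 9.79 and 30.5 against 11.1. In shares, 18.6% of Y-linked and 5.21% of Xist beta cells held a Vgf UMI.

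Pdyn differed less, at 93.2 in Y-linked and 68.8 in Xist cells in CPM of non-hormone UMIs, a ratio of 1.35, and Galr1 was level at 45.4 and 46.3. In alpha cells Vgf was 48.9 (27.9 to 79.4) in 58 Y-linked and 29.1 (24.2 to 34.8) in 790 Xist cells. The labels used here give no sex of the mice, so the number of animals on either side is unknown, mouse and sex cannot be told apart, and no test was made. With Xist cells alone the class fit called the same direction for Vgf in alpha cells and for Pdyn in delta cells.

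**Figure D5:**
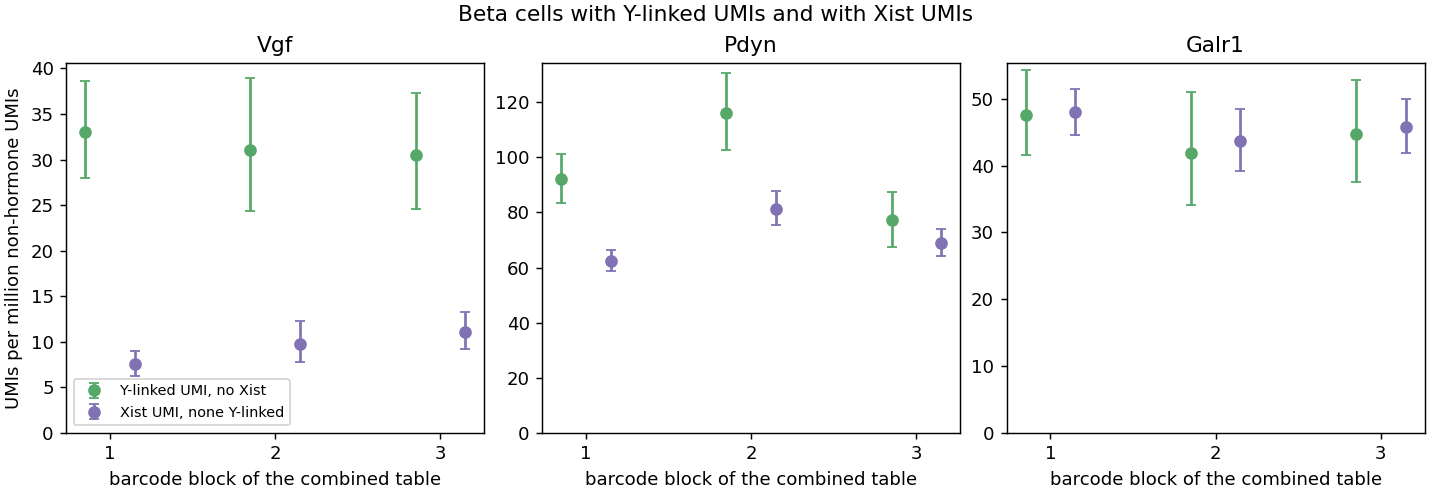
Levels in CPM of non-hormone UMIs (vertical axes, from 0) of Vgf, Pdyn and Galr1 in beta cells with a Y-linked UMI and no Xist and in beta cells with Xist and no Y-linked UMI, for the 3 barcode blocks of the combined table, with exact Poisson 95% intervals. Vgf was 30.5 to 33.0 in Y-linked cells and 7.52 to 11.1 in Xist cells, and Galr1 overlapped in all 3 blocks.

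In the combined table, Pdyn and Vgf were found in the same beta cells more often than their separate shares at equal depth give. Taking Xist cells only, 106 cells held both where 60.0 were computed from the shares within 10 depth groups, a ratio of 1.77, with 2.13, 1.64 and 1.49 in the blocks. Y-linked cells gave 78 where 63.8 were computed. In library 1 the ratio was 1.07 (17 cells against 15.9), so it did not stand out there. Pdyn and Galr1 gave 0.979 in library 1 and 1.08 in the combined table, and Galr1 and Vgf 1.07 and 0.945. These ratios describe cells of shared libraries and carry no test.

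Xist beta cells with and without a Pdyn UMI, matched for depth, were compared over 1365 genes in library 1 and the 3 blocks, and the 5 genes with the highest and lowest median log2 difference that kept 1 direction in all 4 were taken. As many as 661 of the 1365 genes kept 1 direction, as did 457 of 1339 for Vgf and 259 of 1353 for Galr1, so a shared direction is common. Dapl1 was higher in cells with Pdyn by 0.88, 1.04, 1.06 and 1.12, and Fkbp11, Sdf2l1, Ubr4 and Sst were the other 4. The metallothioneins Mt2 (−0.78, −0.97, −1.13 and −0.96) and Mt1 were lower, with Zdhhc2, Hspa9 and Glul. Cells with Vgf also had more Dapl1, Fkbp11, Ubr4 and Sdf2l1, besides Nucb2. For Galr1 the median differences stayed at or below 0.17 upward and the lowest were Sst at −0.89 and Pyy at −0.46. Dapl1 itself stood at 314 in Y-linked and 120 CPM of non-hormone UMIs in Xist beta cells, and Mt1 at 1272 and 2425.

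The 5 remaining members were close to absent from endocrine cells. Cartpt gave 13 UMIs in 12 cells of library 1, 12 of these UMIs in beta cells, and 177 UMIs in 107 cells of the combined table. In that table, beta cells held 104 UMIs in 77 of 7018 cells (0.681 CPM), alpha cells 18 UMIs in 5 of 926 (2.41 CPM) and cells with Gcg and Ppy 13 UMIs in 4 of 256 (4.54 CPM). All 18 alpha UMIs and 12 of the 13 Gcg and Ppy UMIs came from barcode block 1, so few cells carried Cartpt, some of them with up to 9 UMIs. Delta cells held 7 UMIs in 5 of 230 cells (5.01 CPM), spread over the 3 blocks. Gal had 5 UMIs in 2 cells of library 1, both fibroblast-marker cells, and 47 UMIs in 43 cells of the combined table, 29 of them in beta cells (0.190 CPM). Nts had 2 UMIs in 2 cells of the combined table and Adcyap1 2 UMIs in 1 cell.

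Penk lay outside the endocrine cells. In the combined table, 60 of 94 Penk UMIs lay in cells named fibroblast-like from collagen and Dcn markers, where 28 of 83 cells (33.7%) had one and the level was 159 CPM (122 to 205). Beta cells had 11 UMIs in 10 cells (0.0721 CPM) and delta cells 4 UMIs in 1 cell. Library 1 had 0 Penk UMIs in 32 cells of that name, with an exact Poisson upper limit of 4.12 CPM (3.35 CPM by the limit of 3 counts), and 6 in all kept cells. The cells under that name differ between the tables: those of library 1 held the mesothelial genes Msln (441 CPM), Krt19 (832 CPM) and Upk3b (220 CPM), beside 7.96, 7.96 and 23.9 CPM in the combined table, and Dpt, a fibroblast gene, was at 19.0 and 372 CPM.

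Of 12 receptors for these and related peptides, 2 passed the filter on low values. Vipr1, a receptor for VIP and PACAP, was higher in alpha cells by 1.17 (limma adjusted p = 0.0112) and lower in delta cells at −1.16 (limma adjusted p = 0.0117), while Sort1, a sorting receptor that binds neurotensin, was not called in any class. The median over both was 0.48 in alpha cells, beside 0.01 over all genes tested. The opioid receptors were near 0: Oprk1, the dynorphin receptor, had 1 UMI in the 4 classes of the combined table, Oprd1 none, Oprm1 7 UMIs in 7018 beta cells, and Oprl1 4.15 CPM in alpha cells of library 1 (6 UMIs) and 1.87 CPM in the combined table (14 UMIs). Oprk1 and Oprd1 have no row in library 1. Galr2 had 4 UMIs in combined-table beta cells, whereas Galr3 had 3.88 CPM in beta cells of library 1 (70 of 468 cells) and 2.82 CPM in the combined table (415 of 7018). Galr3 in delta cells stood at 6.73 and 4.29 CPM from 2 and 6 UMIs. Adcyap1r1, the PACAP receptor, had 8 UMIs in combined-table beta cells, and Ntsr1 and Ntsr2 had 0 and 1.

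All 10 genes of precursor processing and granules were tested. In delta cells 2 rose and 5 fell (median −0.32, beside −0.05 over all genes), in alpha cells 5 rose and 3 fell (0.27 beside 0.01), in beta cells 3 rose and 4 fell (−0.14 beside 0.02) and in PP cells 1 rose, which was Scg5 at 0.90 (0.04 beside 0.04). Pcsk1, a prohormone convertase, was higher in beta cells by 2.85 and lower in alpha cells at −2.89. Pcsk2, the other convertase, was higher in alpha cells by 0.87 and lower in beta cells at −0.40, and Pcsk1n, which encodes an inhibitor of Pcsk1, was higher in alpha cells by 0.95 and lower in delta and beta cells at −0.69 and −0.43. The granins did not share 1 direction: Chgb was higher in delta cells by 1.53 and lower in alpha cells at −1.17, Scg2 was higher in delta and beta cells by 0.91 and 0.98 and lower in alpha cells at −1.93, and Chga was lower in delta cells at −1.12. Cpe, a carboxypeptidase that trims cleaved peptides, was higher in alpha cells by 0.67 and lower in delta cells at −0.57. Pam, which amidates peptides, was higher in alpha cells by 0.72 and lower in beta cells at −0.97, and Scg5, a chaperone of Pcsk2, was lower in beta cells at −0.86. Of 22 other peptide genes 6 were tested. In delta cells 2 rose (Pyy and Iapp) and 1 fell (Ucn3), in alpha cells 3 fell (Iapp, Ucn3 and Nucb2), in beta cells 3 rose (Ucn3, Iapp and Nucb2) and 1 fell (Pyy), and in PP cells 1 rose (Pyy) and 1 fell (Ucn3). Sst-plus-insulin cells had higher Ucn3 (2.42) and lower Pyy (−1.33) than delta cells and higher Pyy (5.26) than beta cells, with no processing gene or receptor called. The medians of the peptide genes were 0.23, −0.94, 1.13 and −0.11 in delta, alpha, beta and PP cells.

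Over the 9 class columns, which share 2 libraries, the genes most like Pdyn by Pearson correlation were Elmo1 (0.998), Pea15a (0.967) and Anks4b (0.963). Those most like Galr1 were Sytl1 (0.966), Selenos (0.943) and Hdlbp (0.942), and those most like Vgf were Zfp651 (0.976), Specc1 (0.968) and Ang (0.967). Elmo1 showed the Pdyn pattern at lower levels, with a mean of 0.274 and 0.224 per 10000 UMIs in delta cells, 0.0268 and 0.0308 in alpha cells and 0.0625 and 0.0690 in beta cells.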

How the data were processed

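Islet cells of 3 samples were profiled with the 10x Genomics 3-prime system. Library 1 was deposited as raw UMI counts per the file headers and values, and the combined table of replicates 2 and 3 was deposited by the authors as natural log values, ln(1 + 10000 × UMIs / total UMIs of the cell). Its columns summed to 10000, and 100% of 35558086 nonzero values gave whole UMIs within 0.001, so counts were recovered. Cell Ranger 3.2.0 (library 1) and 5.0.0 with Seurat 4.0.0 (combined table), cutadapt 2.5, FastQC 0.11.8 and the mm10 build are named per the submitters' processing notes. In the combined table, 3008 columns repeating another suffix exactly were dropped, leaving 13042 cells in 3 barcode blocks, which no label ties to a sample and which are not replicates. The labels place 2 samples in this table, and why it holds 3 blocks was not settled. The totals are 27474046 UMIs in library 1 and, for the combined table, 196833349. Pairs of library and blocks share 0 to 6 barcodes.

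Cells needed 500 genes, 1000 UMIs and at most 20% mitochondrial UMIs, and the highest Scrublet scores (scanpy 1.11.5, Python 3.11.15) were removed at 0.8% per 1000 cells. Cells under every hormone threshold took the non-endocrine marker list with most detected genes, if at least 3. Mean levels per class and table were tested with limma 3.58.1 (R 4.3.3, with trend, 3 residual degrees of freedom, Benjamini-Hochberg over all genes). The design foresaw this test for the logged combined table. On summed counts, edgeR 4.0.16 and DESeq2 1.42.0 were alternatives. The fit was also run on simulated counts with a shared mean profile, a fixed dispersion, no library effect and changes in delta columns only. These settings differ from the data, so that run does not show how the fit behaves here. The library block is part of the fit because classes of 1 table come from the same mice.

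All 8 members are named. Genes of the receptor, processing and peptide lists are named where called with 1 direction in both tables, at most 5 per class and direction by adjusted p, with the receptors of opioids, galanin, PACAP and neurotensin always given. Nucb2 in alpha cells and the list genes called in Sst-plus-insulin cells fall outside this rule and were named after their values were seen. The 3 most alike genes come from the fit's columns. The Dapl1 and Mt1 lists, the Y-linked split and the mesothelial genes were chosen after values were seen. Members and lists were chosen with earlier results of these data known.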

Additional observations from a re-analysis of the deposited data

Results flagged for a closer look

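Penk had a signal in cells that no class comparison uses: the fibroblast-like cells of the combined table held 159 CPM (122 to 205), above the 1.07 CPM of endothelial cells in the same table. Library 1 had 0 Penk UMIs in its 32 cells of that name, which carry mesothelial genes.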

How the results depend on the processing

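Single values of Pdyn, Galr1 and Vgf were recomputed under up to 20 alternatives, 18 of them with a test. Pdyn in delta cells (0.86 to 3.12, adjusted p 2.38e-06 to 0.0418) and in alpha cells (−4.41 to −0.72), Vgf in alpha cells (0.36 to 2.94) and Galr1 in beta cells (0.41 to 2.96) were called in 18 of 18 with 1 sign, no centring included, at adjusted p up to 0.0128, 0.0108 and 0.0311 for the last 3. Vgf in delta cells was called in 17 of 18 (DESeq2 adjusted p = 0.105), Galr1 in alpha cells in 15 (adjusted p 1.01e-05 to 0.104) and Galr1 in delta cells in 12 (adjusted p 0.00115 to 0.754). No called value changed sign. All alternatives except the unfiltered one kept the filter on low values, so these counts are not independent of it. With no filter, Vgf in alpha cells was 1.64 and Galr1 in beta cells 1.42 (limma adjusted p = 0.00721 and 0.0186). Of all single values compared, 647 were labelled the same, 36 passed the threshold anew, 25 lost it and 18, all shares of thinned cells, moved. The same label covers uncalled values that changed sign, as for Pdyn in Sst-plus-insulin against delta cells (−0.63 to 0.77 over 17 alternatives). Values of 1 library alone carry no test and took that label by construction unless a called value changed sign.

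The count of members called changed in the following cases, and the cause was not tested. In delta cells it was 1 with DESeq2 in place of 3, 2 with pseudocount 0.01, no centring, edgeR under either scaling and no replicate block, and 4 of 6 tested with no filter. In alpha cells it was 2 in place of 3 with pseudocount 0.01, no filter (6 tested) and barcode block 2. In beta cells, 1 became 3 with edgeR under TMM or DESeq2 size factors, and 2 with stricter hormone thresholds (5000 and 500), with no filter (6 members tested, Gal added at 0.38, adjusted p = 0.00703), with delta cells taken with or without Ppy, and without the PP cell rich in Pdyn. In PP cells, 0 became 1 with pseudocount 0.5, stricter thresholds, delta cells with or without Ppy, Xist cells only, and without that PP cell. Against delta cells, Sst-plus-insulin cells gave 1 with pseudocount 0.5. The Ppy, PP-cell and Xist alternatives were chosen after seeing the data. The beta and delta counts with no filter include Gal (0.38 and −0.38), whose counts do not give that order. Library 1 held 0 Gal UMIs in beta, delta, alpha and PP cells. Beta cells of the combined table had 0.190 CPM, below delta (1.43), PP (0.887) and alpha cells (0.535), with overlapping intervals. Mean Gal levels were below the value added before the log, and the fit sets them against column medians that differ by class. These calls are no measure of Gal levels.

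Without the replicate block, Galr1 in delta cells (−1.35) had an adjusted p of 0.0517, Pdyn between delta and PP cells 0.0594 and Galr1 between alpha and PP cells 0.0731, and no other member's call changed. Calls over all genes were 1116, 971, 1434 and 561 in delta, alpha, beta and PP cells, with a lowest count of 661, 583 and 128 without the block in delta, alpha and PP cells and 973 with barcode block 2 in beta cells. The highest were 5268 and 5200 with no filter in delta and beta cells, and 2108 and 1039 with edgeR and DESeq2 size factors in alpha and PP cells. Sst-plus-insulin cells gave 55 against delta cells (10 without the block, 2015 with no filter) and 65 against beta cells (26 with block 2, 522 with edgeR). With DESeq2, 66.4% of delta calls were higher. Against delta cells, Sst-plus-insulin calls were 69.2% higher with edgeR and 96.7% on non-hormone totals.

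The 25 delta and 18 PP cells of library 1 limit the precision of its values, and the 0 UMIs of Galr1 and Vgf in those delta cells have an exact Poisson upper limit of 12.4 CPM. No alternative left out the library 1 delta cell with 17 of the 26 delta Pdyn UMIs, so the dependence on it was not tested.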
